A study of Mus musculus with 3 samples.

Results

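Fos, Fosb, Jun, Junb, Jund, Egr1, Ier2, Atf3, Dusp1 and Zfp36 are immediate early genes: genes whose transcription starts within minutes of a growth factor, cytokine or stress signal, without new protein synthesis. They were chosen by name, as the AP-1 subunits and the early response genes usually measured with them. Earlier results of these data were known when they were chosen. The genes make up 10 of the 28692 gene IDs in the deposited count table. The cells were bone marrow cells of wild-type C57BL/6 mice that the labels name Modified GMP (GMP usually stands for granulocyte-monocyte progenitor), with no treatment, mutation or other agent named in either group. Hindlimbs were crushed directly after euthanasia, cells were enriched with CD117 (Kit) microbeads, stained, and sorted; then 10000 cells per library entered the 3′ v2 assay of 10x Genomics, per the labels' protocols. There was 1 library from male and 1 from female animals. The labels used here state neither the age of the mice, nor how many mice stand behind each library, nor the sorting gate. The p-values below therefore rest only on how unevenly the differences between labels repeat in these 2 libraries. The overall difference between the libraries is taken out, except where library was not a block. Spread among mice is not measured, and sex, mouse and library preparation cannot be told apart.

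AP-1 is a dimer of basic leucine zipper proteins. Fos and Fosb encode subunits that need a Jun partner, while Jun, Junb and Jund can pair with a Fos protein or with each other, and Atf3 encodes a related factor that often acts as a repressor. Egr1 encodes a zinc finger transcription factor and Ier2 a nuclear protein of the same early response. Dusp1 encodes a phosphatase that switches off the MAP kinases that turn the others on, and Zfp36 encodes tristetraprolin, which binds AU-rich elements and speeds the decay of short-lived mRNAs. In blood cell research these genes are known for their roles in quiescent stem cells and in monocyte differentiation, and also for rising when tissue is taken apart, so their level in isolated marrow cells is read with both in mind.

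The promoters of 4 of the genes are shown because they carry the cyclic AMP response element family of letters through which such genes are known to answer signals. Whether these letters bear on the levels or the shared variation described below was not tested. Windows came from RefSeq (GRCm38.p6), which had an entry for 8 of the 10 genes. Each run below is the sequence directly upstream of the annotated start, on the gene's own strand, and capitals mark the short element TGACG, its longer core TGACGT, the full element TGACGTCA or, in Jun, the variant TGACATCA.
Fos, chr12:85473790-85473889, plus strand: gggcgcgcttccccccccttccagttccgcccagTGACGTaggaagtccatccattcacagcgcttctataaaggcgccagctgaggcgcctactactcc
Jun, chr4:95052223-95052322, minus strand: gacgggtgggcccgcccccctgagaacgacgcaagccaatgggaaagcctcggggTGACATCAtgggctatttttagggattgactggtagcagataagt
Junb, chr8:84978749-84978868, minus strand: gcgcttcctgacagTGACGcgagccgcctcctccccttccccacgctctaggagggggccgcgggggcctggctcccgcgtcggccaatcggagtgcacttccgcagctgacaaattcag
Dusp1, chr17:26508473-26508672, minus strand: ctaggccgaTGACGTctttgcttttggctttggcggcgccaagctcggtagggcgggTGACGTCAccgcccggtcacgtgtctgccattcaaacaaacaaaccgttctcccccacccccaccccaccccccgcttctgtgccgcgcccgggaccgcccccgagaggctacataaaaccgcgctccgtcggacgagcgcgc

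Each motif was searched on both strands of the 250 bases before the start. The short element TGACG, which TGACGT and TGACGTCA also contain and TGACATCA does not, stood in 5 of the 8 promoters (Fos, Fosb, Junb, Atf3 and Dusp1) and in 17.8% of the 32851 windows of that length. TGACGT stood in 3 (Fos, Atf3 and Dusp1), against 6.47% of windows, and the full TGACGTCA stood in Dusp1 alone, against 1.55%. TGACATCA was found in Jun, at bases -45 to -38, against 2.93% of windows. The AP-1 site TGANTCA was in none of the 8, against 6.75% of windows, and the CArG box of serum response factor was found in Zfp36 only, against 1.47%. A match is a description of the letters, and a missing match says only that these letters are not in this window.

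The count table held 11132 cells, 4336 in the female library and 6796 in the male one, with a median of 21202 and 18687 unique molecular identifiers (UMIs, each standing for 1 captured transcript) per cell. The authors' deposited clusters carry 17 labels, named below as deposited without expanding abbreviations that the files do not explain. They are referred to here as early (HSCP-1, HSCP-2 and Multi-Lin), monocytic (MDP, cMoP and Mono), granulocytic (Gran-1 and Gran-2), Myelo-1 to Myelo-4, and the others (Meg, Eryth, DC, MP and IG2). Levels are given as CPM, the UMIs of a gene per 1 M UMIs summed over all cells of a label in 1 library. Marker sums went with the names: 7 granule and granulocyte genes such as Elane and Mpo summed to 47058 and 49617 CPM in Gran-2 (female and male), against 3095 and 2781 in HSCP-2, and 9 later neutrophil genes such as Ltf and Camp reached 130137 and 135861 CPM in Myelo-2. The 6-gene macrophage list stayed between 0 and 129 CPM. The 5-gene T and NK cell list summed to 112 to 2027 CPM and was highest in Gran-2 (1894 and 2027), Gran-1 (1480 and 1669) and Myelo-1 (1113 and 1061). In those 3 labels Nkg7, a granule membrane gene, made up nearly all of it, at 1893 and 2027 CPM in Gran-2, and Cd3e was at 0 in all 17 labels. The 6 basophil, mast cell and eosinophil genes summed to 2248 and 3013 CPM in Multi-Lin, against 122 and 179 in HSCP-2 and 267 and 223 in Gran-1, led by Mcpt8 at 825 and 942 CPM. Multi-Lin is 1 of the early labels in the comparisons below, and the part of these transcripts, and of Nkg7, in the results was not tested. HSCP-1 rests on 14 female and 10 male cells, and in its male sum 5 dendritic genes reached 2590 CPM, against 112 CPM in the female sum. DC rests on 11 and 22 cells and Myelo-4 on 31 and 28. The same barcode occurred in both libraries 45 times. How the clusters were made was not stated in the material used here. They were drawn from the same cells, so a difference between labels is not independent of the labels.

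By the mean of both libraries, the sum of the 10 genes was highest in the early labels and DC, and lowest in Myelo-2, MP and the Gran labels. Single genes departed from this order, as given below. HSCP-2 held the highest mean of both libraries for 8 of the 10 genes (Fos, Fosb, Jun, Jund, Egr1, Ier2, Dusp1 and Zfp36), and DC for Junb and Atf3. The distance from the highest to the lowest label ran from 4.55-fold for Ier2 to 13.7-fold for Egr1. Summed over the 10 genes, HSCP-2 reached 5963 CPM in the female library and 4730 in the male, Multi-Lin 2853 and 2343, Mono 1848 and 1460, and Gran-1 1058 and 818. The sum rose again along the Myelo labels, from 1192 and 1045 CPM in Myelo-2 to 2731 and 2059 in Myelo-4.

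**Figure D1:**
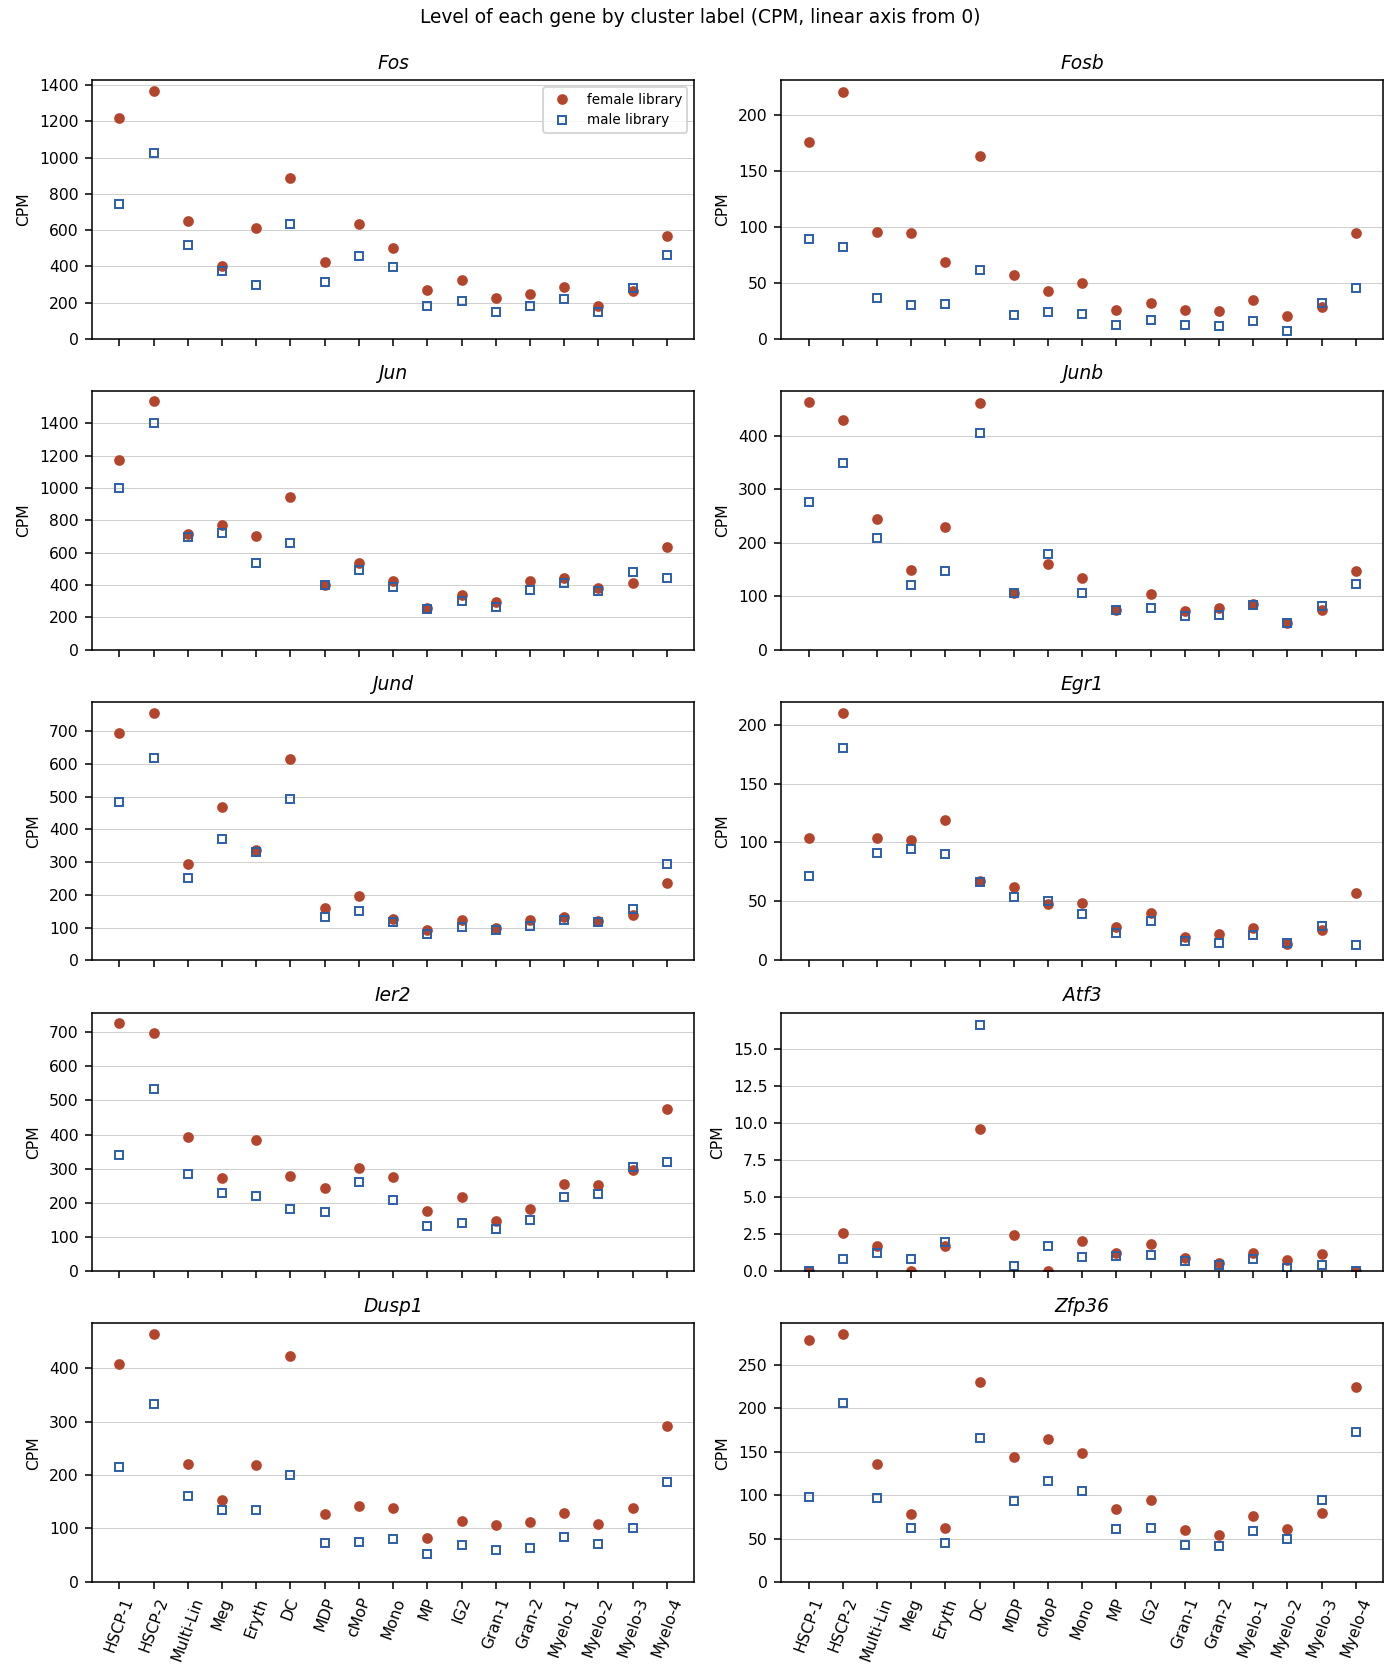
Level of each of the 10 genes (vertical axes, CPM, linear from 0) in the 17 labels (horizontal axis), with filled circles for the female and open squares for the male library. HSCP-2 has the highest mean for 8 of the 10 genes, and Fos reads 1366 and 1024 CPM there against 226 and 146 in Gran-1.

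Among the Fos family, Fos stood at 1366 CPM in female and 1024 in male HSCP-2 cells, at 1221 and 741 in HSCP-1, at 885 and 632 in DC and at 648 and 518 in Multi-Lin. It was at 501 and 394 CPM in Mono, 226 and 146 in Gran-1, 182 and 147 in Myelo-2, and 569 and 462 in Myelo-4. In both libraries every early label and DC stood above Mono, and Gran-1, Gran-2, MP, Myelo-1, Myelo-2 and Myelo-3 stood below it. Fosb, the other Fos gene, stood at 220 CPM in female but 81.5 in male HSCP-2 cells and at 20.2 and 6.70 in Myelo-2. For Fosb all 16 pairs of labels next to each other in the order overlapped between libraries. The same held for Ier2 and Dusp1, and for 15 of the 16 pairs in the orders of Fos and Zfp36.

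In the Jun family, Jun was at 1535 and 1404 CPM (female and male) in HSCP-2, 717 and 695 in Multi-Lin, 297 and 264 in Gran-1, and lowest in MP at 256 and 252. Its 2 libraries lay closer together than those of Fos, and 9 of the 16 neighbouring pairs in its order overlapped. Junb, whose product is a weaker activator than Jun, was at 462 and 405 CPM in DC, 430 and 349 in HSCP-2 and 49.9 and 50.3 in Myelo-2. Jund, the Jun gene least dependent on signals, was at 755 and 618 CPM in HSCP-2, 616 and 493 in DC, 468 and 369 in Meg, and 92.2 and 81.0 in MP. Meg, the label with the megakaryocyte markers, thus came directly after HSCP-2, HSCP-1 and DC for Jun and Jund, although it was only in the middle of the order for Fos at 403 and 375 CPM.

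Egr1 was at 209 and 180 CPM (female and male) in HSCP-2 and at 13.8 and 14.5 in Myelo-2. Here Eryth (119 and 90.1 CPM) and Meg (102 and 94.0) came next after HSCP-2, ahead of DC (67.3 and 66.5). Ier2 was at 697 and 533 CPM in HSCP-2, 148 and 122 in Gran-1 and 475 and 321 in Myelo-4, which ranked above Multi-Lin. By the mean of both libraries, DC ranked below Myelo-2 and Myelo-1 for Ier2. Atf3 was hardly detected, with 118 UMIs in the whole female and 106 in the whole male library; it read 9.62 and 16.6 CPM in DC from 1 and 3 UMIs, and was at 0 in HSCP-1 and Myelo-4, where depth limits what could be seen.

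Of the feedback genes, Dusp1 was at 463 CPM in female and 334 in male HSCP-2 cells, 423 and 200 in DC, and 82.5 and 51.5 in MP. Zfp36 was at 286 and 206 CPM in HSCP-2, 225 and 173 in Myelo-4, 148 and 105 in Mono, and 54.0 and 41.2 in Gran-2. By the mean of both libraries, Zfp36 was the one gene of the 10 for which all 3 monocytic labels ranked above Multi-Lin (136 and 97.3 CPM), although the libraries of these labels overlapped. The order of the 17 labels was alike in the libraries, with Spearman's rho between 0.85 (Egr1) and 0.97 (Jund) for 9 genes and 0.44 for Atf3, as a description over 17 labels of the same clustering.

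The labels also differ in RNA per cell, and the picture per cell is another one. Median UMIs per cell ran from 5844 and 5057 (female and male) in Myelo-4 and 8298 and 7140 in HSCP-2 to 27602 and 22359 in Gran-1. Across labels the CPM of 9 genes was lower where this median was higher, with rho from -0.30 (Egr1, male) to -0.87 (Jund, male) over 17 labels. As UMIs per cell, Fos was at 10.5 ± 2.90 in HSCP-2 (mean ± SD of n = 2 libraries), 9.55 ± 2.86 in Multi-Lin, 10.4 ± 3.14 in Mono, 4.86 ± 2.18 in Gran-1 and 3.04 ± 0.67 in Myelo-4. Mono and HSCP-2 thus differed in Fos molecules per cell by less than the spread between libraries while the CPM of Mono was well below, and Myelo-4, high by CPM, was low per cell. The 10 genes together gave 54.6 and 38.8 UMIs per cell in HSCP-2, 46.6 and 30.4 in Mono, 29.9 and 18.5 in Gran-1 and 16.9 and 11.5 in Myelo-4. A high CPM in HSCP-2 or Myelo-4 is a high share of a small pool of RNA, and the part of cell RNA content in these differences was not tested.

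**Figure D2:**
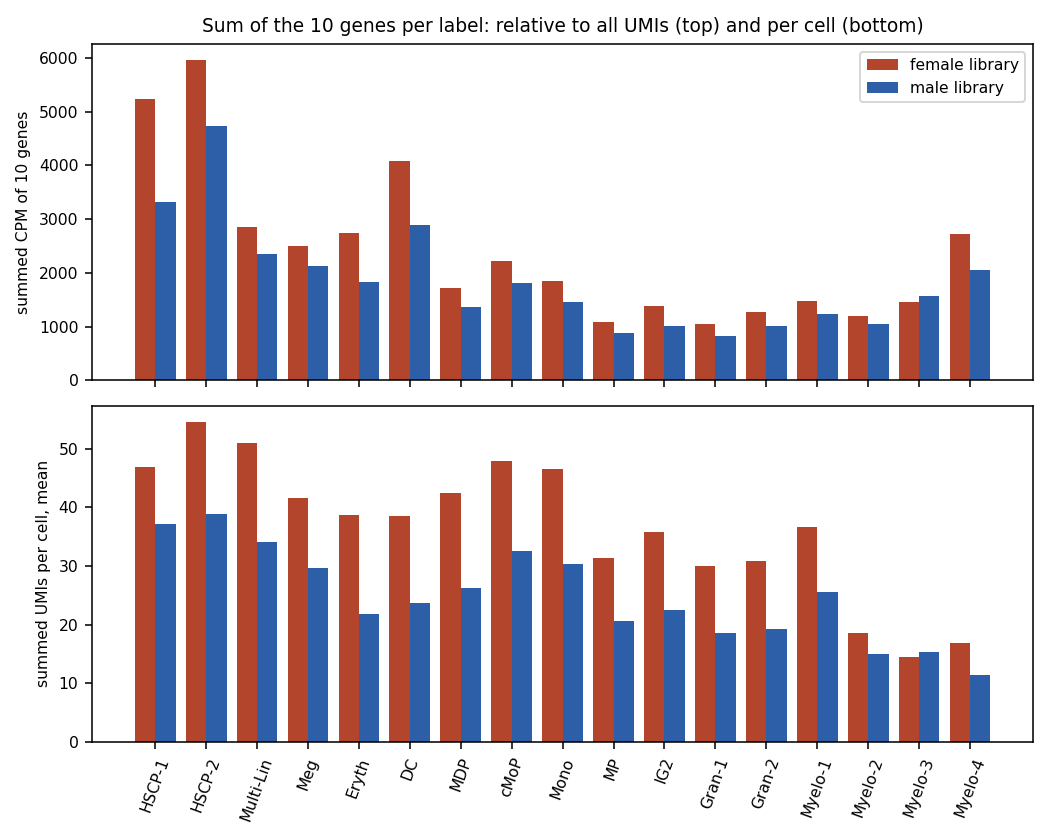
Sum of the 10 genes in each of the 17 labels (horizontal axis) for the female and male library (bars from 0), as CPM in the top panel and as mean UMIs per cell in the bottom panel. HSCP-2 is highest in both panels, while Myelo-4 goes from 2731 and 2059 CPM at the top to 16.9 and 11.5 UMIs per cell at the bottom, near the low end.

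With every cell thinned to 4000 UMIs, a depth that no cell fell short of, Fos was detected in 94.5% of female and 94.5% of male HSCP-2 cells, 83.5% and 77.7% in Multi-Lin, and 53.6% and 38.2% in Gran-1. Without thinning the shares were 98.0% and 95.9%, 96.8% and 93.8%, and 94.0% and 78.6%. Egr1 was detected in 52.7% and 49.3% of thinned HSCP-2 cells and in 8.53% and 5.91% of Gran-1 cells (82.0% and 72.1%, and 40.3% and 28.2%, without thinning). No label here is known to lack these genes, so the share that free RNA in the droplets would give could not be read from one. The lowest label limits it only for cells of like or greater depth. The lowest share of thinned cells with a Fos UMI was 46.5% in the female library (Myelo-2, median depth 13670 UMIs). In the male it was 38.2% (Gran-1, median depth 22359 UMIs). In shallower labels, such as HSCP-2, DC and Myelo-4, free RNA can make up more of the thinned UMIs, so these shares set no limit there.

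The comparison of granulocytic with early labels asked how the genes differ between the start of the series and the committed granulocyte progenitors. Fos averaged 235 CPM over Gran-1 and Gran-2 in the female library and 165 in the male, against 1078 and 761 over HSCP-1, HSCP-2 and Multi-Lin. Jun stood at 360 and 318 CPM against 1142 and 1033, Jund at 111 and 98.9 against 581 and 451, and Egr1 at 21.4 and 15.4 against 139 and 114. For 9 genes, the 4 granulocytic sums of label and library did not overlap with the 6 early ones and lay below them, as did those of 19.6% of all genes tested. Expression was lower in the granulocytic labels for 9 of the 10 genes by edgeR's quasi-likelihood test (Benjamini-Hochberg adjusted p under 0.05 over 11627 genes), where 16.4% of all genes tested were lower.

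Egr1 was 4.88-fold lower, with a log2 change of -2.29 ± 0.19 (SE; edgeR adjusted p = 3.69e-15). Fos was 3.33-fold lower at -1.74 ± 0.08 (edgeR adjusted p = 1.46e-26). The Jun genes fell by 1.23 (Jun), 1.79 (Junb) and 1.78 (Jund) on the log2 scale, Fosb by 2.12, Ier2 by 1.26, Dusp1 by 1.36 and Zfp36 by 1.42. Atf3 did not pass (edgeR adjusted p = 0.856), with sums of 0 to 25 UMIs, and its direction is not settled: the fitted log2 change was 1.11, and -1.14 with DESeq2 (adjusted p = 0.103). With HSCP-1 left out, where Atf3 had 0 UMIs, it was called lower, at -0.93 (edgeR adjusted p = 0.0455), and so it was with sums over whole label groups, at -0.73 (edgeR adjusted p = 0.0341). The median over 9 genes (all but Atf3) was 2.04 log2 units below the median of the 4420 genes with a mean of 20 CPM or more, and this distance was -2.04 with DESeq2 and -2.04 without TMM (trimmed mean) scaling. The scaling does move all genes: their median log2 change was 0.31 with TMM, 0.03 with DESeq2 and -0.11 without TMM scaling. Of the genes called, 61.1% were higher with TMM, 30.7% with DESeq2 and 28.3% without TMM scaling.

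Other genes of the early response went the same way. Of the 23 other immediate early genes tested, 15 were lower and 3 higher, with a median log2 change of -1.28 against 0.15 for all genes tested. Klf4, a zinc finger factor of monocyte differentiation, was at 3.07 and 2.66 CPM (female and male) in the granulocytic against 48.9 and 27.8 in the early labels, a log2 change of -3.11 ± 0.32 (edgeR adjusted p = 5.54e-12). Pim1, a kinase gene induced by cytokines, fell by 2.73. Of 11 MAP kinase phosphatase and feedback genes, 5 were lower, among them Dusp2 at -1.44, and 1 was higher. Of 6 AU-rich element binding genes, 4 were lower, among them Zfp36l2, a sister gene of Zfp36, at -1.18. For 2 other lists the direction depended on the scaling and on whether HSCP-1 was kept. Of 11 other bZIP genes tested, 3 were higher and 0 lower with TMM (0 lower at an unadjusted p under 0.05 by edgeR), but 1 was higher and 2 lower both with DESeq2 and without TMM scaling. Atf4, a factor of the amino acid response, was at 0.38 with TMM, at 0.11 with DESeq2 (adjusted p = 0.366) and at -0.036 without TMM scaling. Of 14 upstream kinases and factors, 6 were higher and 1 lower with TMM, against 0 higher and 5 lower under both others. With TMM but HSCP-1 left out, 7 of these 14 were higher and 6 lower. In that run 5 of the 11 bZIP genes were higher and 1 lower, with a median of -0.09. With TMM and thinned cells, 1 of 13 upstream genes was higher and 1 lower.

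The 16 heat shock and tissue handling genes had no such common direction. In the same comparison, 7 were higher and 2 lower, with a median of 0.35, where 25.7% of all genes were higher and 42.1% had changed in either direction. With DESeq2 and without TMM scaling 1 was higher and 6 were lower, with medians of 0.03 and -0.07. Hspa5, a chaperone of the endoplasmic reticulum, was higher under TMM at 1.63 ± 0.07 (619 and 725 CPM against 275 and 343; edgeR adjusted p = 2.16e-28) and at 1.21 without TMM scaling. Dnajb1, a co-chaperone of Hsp70 that heat induces, was lower at -0.67.

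**Figure D3:**
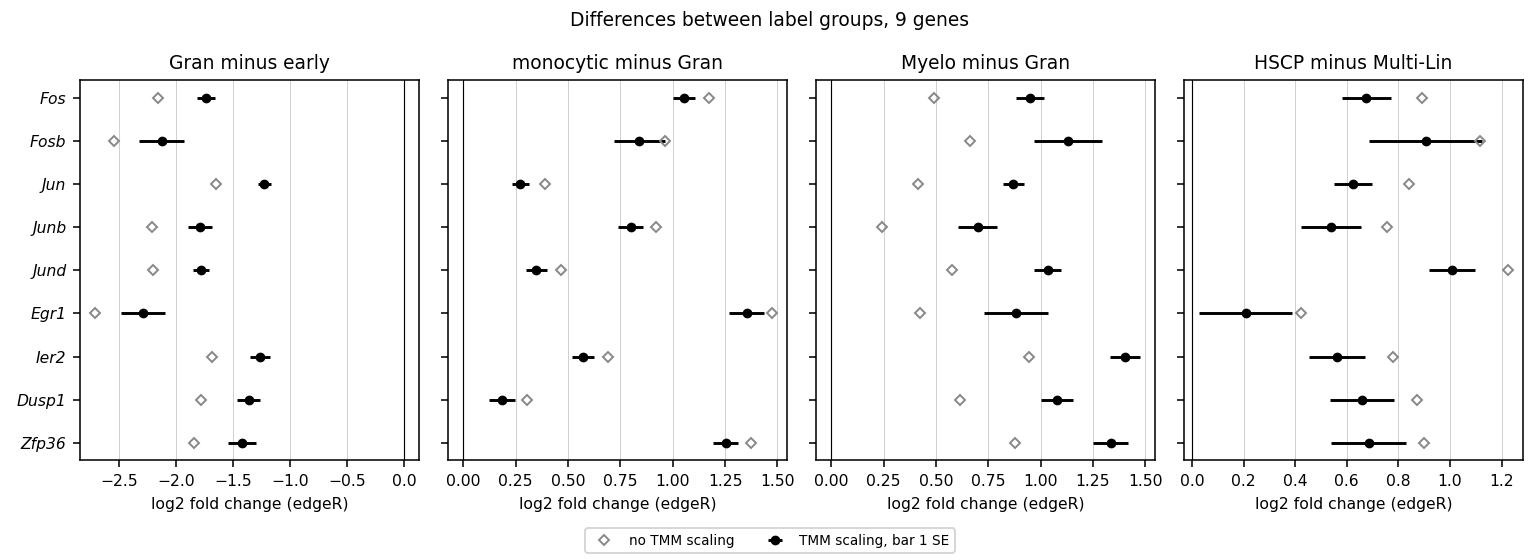
Log2 fold change of 9 genes (all but Atf3) in 4 comparisons of label groups, filled points with TMM scaling and 1 SE, open diamonds without TMM scaling. The 9 genes lie below 0 for granulocytic minus early labels and above 0 in the 3 other panels under both scalings, with Egr1 at 0.21 ± 0.18 in the last panel.

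The monocytic labels are the other branch from the early labels, and were compared with the granulocytic ones. Both this comparison and the next share the Gran sums with the one above. Zfp36 averaged 152 CPM in the female library and 105 in the male over MDP, cMoP and Mono, against 57.0 and 41.7 over the Gran labels. Fos was at 519 and 388 CPM against 235 and 165, and Egr1 at 53.0 and 47.6 against 21.4 and 15.4. The sums of the monocytic and Gran labels did not overlap for 4 of the 10 genes (Fos, Junb, Egr1 and Zfp36), where the monocytic sums lay above the Gran sums for 13.3% of all genes tested. Levels were higher in the monocytic labels for 9 of the 10 genes by edgeR's test, where 20.1% of all genes tested were higher (43.1% in either direction).

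The size of the difference varied among the genes. It was 1.35 ± 0.08 (log2, SE) for Egr1, 1.25 ± 0.06 for Zfp36 and 1.05 ± 0.05 for Fos (edgeR adjusted p = 3.64e-24), then 0.84 for Fosb, 0.80 for Junb and 0.57 for Ier2. Jund at 0.35, Jun at 0.27 and Dusp1 at 0.18 differed least. Dusp1 (edgeR adjusted p = 0.0141) did not pass with thinned cells (edgeR adjusted p = 0.224) or without library as a block (edgeR adjusted p = 0.603). Fosb did not pass without the block (edgeR adjusted p = 0.0868). Atf3 did not pass (edgeR adjusted p = 0.116), and was called higher with sums over whole label groups (0.90, edgeR adjusted p = 0.0128). Of the genes called, 46.7% were higher with TMM, 55.2% with DESeq2 and 64.5% without TMM scaling.

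In this comparison 12 of the 23 other immediate early genes were higher and 4 lower. Klf4 was 24.8-fold higher (102 and 99.8 CPM against 3.07 and 2.66), and Klf2, a factor of quiescence and of vessel and lymphocyte biology, was higher at 1.52 ± 0.08. Gadd45a, a gene of the DNA damage response, was lower at -1.08. Of the MAP kinase feedback genes 5 were higher and 1 lower of 11, and of the AU-rich element binding genes 4 were higher and 1 lower of 6, with Zfp36l2 at 0.61. Of the 16 heat shock genes 9 were higher and 4 lower, where 20.1% of all genes tested were higher and 23% lower. Hspa1a, the inducible Hsp70 gene, was higher at 0.97 (148 and 247 CPM against 53.4 and 130), whereas Hspa5 was lower at -0.64.

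The Myelo labels carry the later neutrophil markers and were compared with the Gran labels. Ier2 averaged 320 CPM in the female library and 267 in the male over Myelo-1 to Myelo-4, against 166 and 136 over the Gran labels. Fos was at 326 and 278 CPM against 235 and 165, and Zfp36 at 110 and 94.0 against 57.0 and 41.7. These means hide a gradient among the Myelo labels: by the mean of both libraries Myelo-2 was below both Gran labels for Fos, Fosb, Junb and Egr1, and Myelo-4 was above them for 9 genes in the female library and 8 in the male, where Egr1 was at 12.8 CPM from 2 UMIs. Only for Ier2 among the 10 did the 8 Myelo sums lie apart from the 4 Gran sums, above them, as they did for 5.71% of all genes tested. Levels were higher in the Myelo labels for 9 of the 10 genes by edgeR's test, where 17.2% of all genes tested were higher (47.4% in either direction).

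The log2 difference was 1.40 ± 0.07 for Ier2 (SE; edgeR adjusted p = 2.39e-24), 1.34 ± 0.08 for Zfp36 and 0.95 ± 0.07 for Fos, and lowest for Junb at 0.70 ± 0.09. TMM scaling adds to these values, since the median of all genes at 20 CPM or more was -0.32 with it, -0.13 with DESeq2 and -0.78 without TMM scaling. Without TMM scaling the same 9 genes passed, at 0.94 for Ier2, 0.49 for Fos and 0.24 for Junb (edgeR adjusted p = 0.0129). Of the genes called, 1999 were higher and 3518 lower with TMM, 3083 and 2473 with DESeq2, and 1208 and 5910 without TMM scaling. Per cell the Myelo labels lay on both sides of the Gran labels for Fos. Myelo-1, at 5.88 ± 1.85 UMIs per cell (SD, n = 2 libraries), was above Gran-1 (4.86 ± 2.18) and Gran-2 (4.74 ± 1.73) in both libraries, and Myelo-2 (2.48 ± 0.50), Myelo-3 (2.71 ± 0.08) and Myelo-4 (3.04 ± 0.67) were below them in both. Atf3 did not pass (edgeR adjusted p = 0.858).

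Of the 23 other immediate early genes, 13 were higher in the Myelo labels and 2 lower (10 and 3 without TMM scaling, 16 and 2 with DESeq2). Klf2 was higher at 2.99 ± 0.08, with 477 and 329 CPM (female and male) against 76.3 and 44.1, and reached 945 and 603 in Myelo-4. Klf6, a related factor of neutrophil and macrophage activation, was higher at 2.41 ± 0.12. The MAP kinase feedback genes did not go with them: 1 was higher and 2 lower of 11 (2 and 2 with DESeq2, 1 and 3 without TMM scaling), with a median of -0.37 that was 0.39 with DESeq2 and 0.45 with Myelo-4 left out. Dusp2 was lower, at 11.03 and 12.2 CPM against 37.98 and 29.5 (edgeR adjusted p = 3.30e-07). Of the 6 AU-rich element binding genes 0 were higher and 1 lower (0 higher by edgeR at an unadjusted p under 0.05), against 1 and 0 with DESeq2, 0 and 5 without TMM scaling, and 2 and 0 with Myelo-4 left out. Heat shock genes went the other way, with 12 lower and 3 higher of 16 (30.3% of all genes tested were lower) and a median log2 change of -1.44 against -0.40 for all genes tested. Their count was 13 lower and 0 higher without TMM scaling and 11 and 3 with DESeq2. Hsp90ab1, the constitutive Hsp90 gene, was at 471 and 574 CPM against 1863 and 1964, a log2 change of -1.65 ± 0.05 (edgeR adjusted p = 7.36e-36). Hspa1a was at 13.96 and 37.0 CPM against 53.4 and 130, and was at 0 in Myelo-4 in both libraries.

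Within the early labels, HSCP-1 and HSCP-2 were compared with Multi-Lin. Jund averaged 725 CPM in the female library and 550.3 in the male over the HSCP labels, against 294 and 253 in Multi-Lin. Jun was at 1354 and 1202 CPM against 717 and 695, and Fos at 1294 and 883 against 648 and 518. The 4 HSCP sums lay above both Multi-Lin sums for 4 of the 10 genes (Fos, Jun, Junb and Jund), and for 15% of all genes tested. Levels were higher in the HSCP labels for 8 of the 10 genes by edgeR's test, where 4.87% of all genes tested were higher (16.6% in either direction).

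The difference was 1.01 ± 0.09 for Jund (log2, SE; edgeR adjusted p = 1.37e-13), 0.91 ± 0.22 for Fosb, 0.68 ± 0.09 for Fos and 0.62 ± 0.07 for Jun, and 0.54 to 0.68 for Junb, Ier2, Dusp1 and Zfp36. Egr1, at 0.21 ± 0.18 (edgeR adjusted p = 0.506), and Atf3 (adjusted p = 0.656) did not pass. The value for Egr1 rests on the small HSCP-1 label, at 104 and 71.5 CPM: with HSCP-1 left out it was 0.85 (edgeR adjusted p = 1.18e-13). Without library as a block, 4 genes passed, and Fosb (edgeR adjusted p = 0.358), Ier2 (adjusted p = 0.0656), Dusp1 (adjusted p = 0.180) and Zfp36 (adjusted p = 0.0630) did not. Junb did not pass with thinned cells (0.22, edgeR adjusted p = 0.384). Of the genes called, 29.3% were higher with TMM, 69.4% with DESeq2 and 54.9% without TMM scaling.

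Of the other immediate early genes, 10 were higher in the HSCP labels and 0 lower of 23. At an unadjusted p under 0.05 by edgeR, 1 was lower. The counts were 11 and 0 without TMM scaling and with DESeq2, and 4 and 0 of 21 with thinned cells. With HSCP-1 left out, 16 were higher and 2 lower. Ier5, an early response regulator of heat shock factor, was at 134 and 124 CPM against 35.03 and 35.04, a log2 change of 1.64 ± 0.18, and Klf4 was higher at 1.66 ± 0.34. Btg2, an antiproliferative gene, was at 498 and 419 CPM against 271 and 245, at 0.60. With thinned cells Klf4 (edgeR adjusted p = 0.0585) and Btg2 (edgeR adjusted p = 0.365) did not pass. Of the MAP kinase feedback genes 2 were higher and 0 lower of 11 (1 lower by edgeR at an unadjusted p under 0.05; 3 and 0 with DESeq2, and 0 and 0 of 10 with thinned cells, where none passed unadjusted either), and of the AU-rich element binding genes 2 were higher and 1 lower of 6 (2 and 0 with DESeq2 and without TMM scaling, 3 and 3 with HSCP-1 left out). Heat shock genes again went the other way, with 0 higher and 9 lower of 16 (11.7% of all genes tested were lower) and a median of -0.56 against -0.21 for all genes tested. With all labels kept, 0 were higher by edgeR with TMM at an unadjusted p under 0.05 as well. With HSCP-1 left out, 8 were lower and 3 higher (4 higher by edgeR at an unadjusted p under 0.05). Without TMM scaling 6 were lower and 2 higher, and with DESeq2 5 and 3. Hspa5 was lower at -1.26, and Hsph1, an Hsp70 partner, at -1.55 (a call lost with DESeq2, adjusted p = 0.0649). The lowest HSCP sum for Hsph1 was 0 CPM, in the male library. Its log2 change was -3.80 in the male library alone and -1.02 in the female.

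The next question was whether the genes differ between the 2 libraries. There is 1 library of each sex, so this has no replicate check and no test. Over all cells, Fos stood at 376 CPM in the female library and 268 in the male, a ratio of 1.40, and Fosb at 46.5 and 19.3 CPM, a ratio of 2.41. The ratio was 1.65 for Dusp1, 1.42 for Zfp36, 1.33 for Ier2, 1.27 for Egr1, 1.20 for Jund, 1.20 for Junb and 1.12 for Jun. All 9 genes with a mean of 20 CPM or more were thus higher in the female library, as were 1888 of all 4306 genes at that level. Fosb and Dusp1 were higher by 1.5-fold or more, as were 0.534% of the 4306 genes. The median log2 difference, female minus male, was 0.41 for these 9 genes and -0.01 for all 4306.

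The difference ran through the labels. Dusp1 was higher in the female library in 17 of 17 labels, Fos, Fosb, Jun, Ier2 and Zfp36 in 16, Jund in 15, Egr1 in 14 and Junb in 12. Myelo-3 was the exception for Fos, Fosb, Jun, Ier2 and Zfp36; there Fos read 266 CPM in the female library and 282 in the male. With equal weight for each label the median over the 9 genes was 0.43. Depth moved with it, since female cells had the higher median UMI count over all cells (21202 against 18687), and the part of depth was not tested.

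The heat shock and tissue handling list moved the opposite way. All 12 of its genes at 20 CPM or more were higher in the male library, as were 2418 of all 4306 genes at that level. The median of the 12 was -0.17 (female minus male), although Dnajb1 at -0.01 was nearly level. Hspa1a stood at 66.2 CPM in the female library and 140 in the male, 2.11-fold higher in the male, and was higher in the male library in 16 of the 16 labels with UMIs in both. It was the single list gene at 20 CPM or more past 1.5-fold, as were 0.186% of the 4306 genes. Hspa1b, a near copy of Hspa1a with which reads could be shared, was chosen after its values were seen: it read 5.36 and 13.8 CPM and was higher in the male library in 13 of 15 labels. In HSCP-2, for example, Fos was at 1366 and 1024 CPM while Hspa1a was at 28.6 and 141. The 9 immediate early genes were thus higher in the female library, and the 12 genes of the heat shock and tissue handling list in the male. The part of tissue handling in either difference was not tested.

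**Figure D4:**
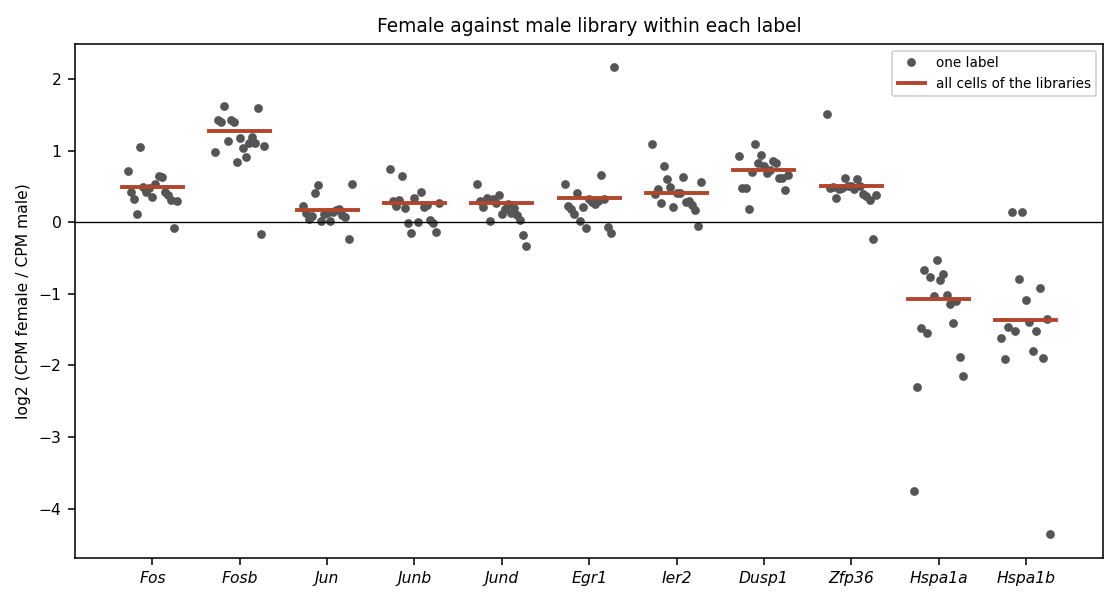
Log2 ratio of CPM, female over male library, for 9 immediate early genes and 2 Hsp70 genes; each dot is 1 label with UMIs in both libraries and the bar is the ratio over all cells. The immediate early genes lie mostly above 0, from 0.17 for Jun to 1.27 for Fosb over all cells, while Hspa1a (-1.08) and Hspa1b (-1.37) lie below.

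The sum of 9 later neutrophil markers was also higher in the female library in 11 of the 13 labels outside Myelo, all but Meg and Eryth. It was 1850 CPM in female and 1270 in male HSCP-2 cells, 1872 and 1288 in Multi-Lin and 2099 and 1340 in Gran-1, against 130137 and 135861 in Myelo-2. None of the 9 was at 0 in both libraries in HSCP-2. These transcripts moved with the library in the same direction as the immediate early genes, and their part in the difference was not tested.

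Whether the genes vary together among single cells was asked within labels, so that differences between label means do not enter. Differences in cell state inside a label still do. Counts of the thinned cells were correlated after removing each label's mean in each library. All 36 pairs of the 9 genes (Atf3, with few UMIs, was left out after its counts were seen) had a correlation above 0 in both libraries. The median Pearson's r was 0.10 in the female library and 0.10 in the male, with a range of 0.04 to 0.21 and 0.04 to 0.23. Fos with Jun was the highest pair, at 0.21 and 0.23, followed by Fos with Junb (0.18 and 0.17) and Fos with Ier2 (0.15 and 0.19). These values are weak in size, as counts of few UMIs give, and they describe 4336 and 6796 cells that share a library each.

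**Figure D5:**
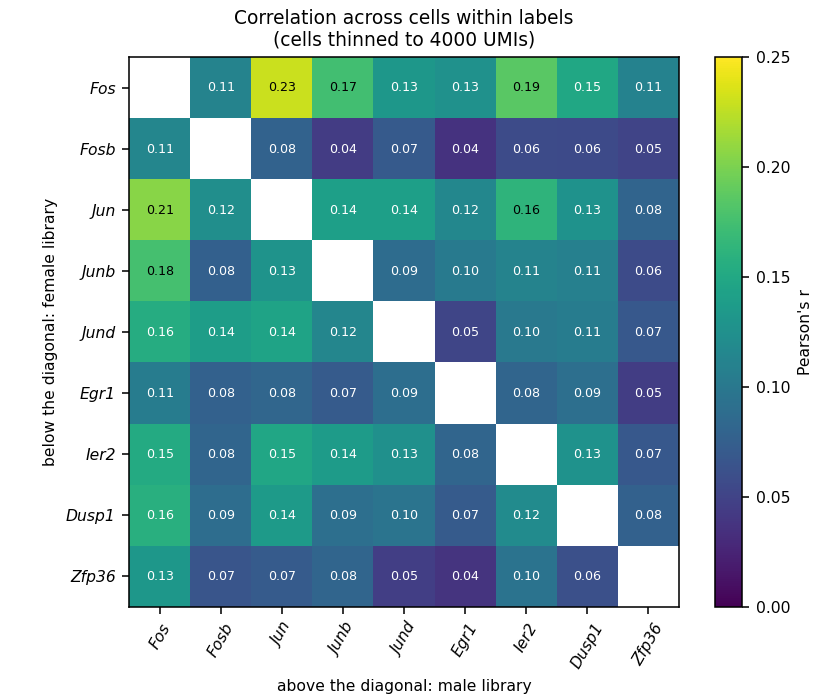
Pearson's r across cells within labels for each pair of 9 genes, thinned to 4000 UMIs per cell, with the female library below and the male library above the diagonal (colour scale from 0 to 0.25). Fos with Jun is highest at 0.21 and 0.23, and no pair is below 0.

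The correlation was not even across labels. Among the labels with 100 cells or more in each library, a limit set after the cell numbers were seen, the median over 36 pairs was 0.17 and 0.17 (female and male) in HSCP-2 and 0.17 and 0.14 in Multi-Lin. It was 0.05 and 0.05 in Mono, 0.07 and 0.05 in Gran-1 and 0.04 and 0.05 in Myelo-2. Fos with Jun reached 0.35 and 0.40 in HSCP-2 and 0.33 and 0.33 in Multi-Lin. HSCP-2 and Multi-Lin, which had the highest summed levels among these labels, thus also had the highest correlations. Below them the order did not follow the level: Mono, next by its sum of 1654 CPM, was under Gran-1 at 938 CPM, and also under Myelo-3 (1510 CPM; 0.07 and 0.11) and Myelo-1 (1354 CPM; 0.09 and 0.10). Higher counts carry less sampling noise. The part of level in these values, and of differing cell states inside a label, was not tested. In Multi-Lin, 63.0% of the female cells with a Fos UMI had a Junb UMI, against 40.7% of those without, and in the male library 59.3% against 38.7%. In Gran-1 the shares were 24.9% against 21.2% and 26.5% against 19.9%. In each library this difference in share was larger in Multi-Lin than in Gran-1 for Junb, Fosb, Jund, Egr1, Ier2, Dusp1 and Zfp36. It was smaller in Multi-Lin for Jun and for the rarely detected Atf3. For Jun it was 7.2 and 9.3 percentage points in Multi-Lin (female and male), and 10.6 and 17.2 in Gran-1.

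Labels accounted for a moderate part of the variance of these genes among thinned cells. For Fos it was 27.7% in the female library and 24.1% in the male, for Jun 23.4% and 21.3%, for Jund 26.6% and 19.0%, for Dusp1 12.4% and 10.4% and for Zfp36 10.0% and 7.08%. Elane, the neutrophil elastase gene that marks the granulocytic labels, had 80.7% and 78.3%, and Hspa1a had 8.54% and 8.42%. The remainder holds both sampling noise and variation within labels.

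The sum of the 10 genes was set against other lists in the same way. Within labels it had an r of 0.35 in the female library and 0.30 in the male with the sum of the other immediate early genes, and of 0.12 and 0.09 with the MAP kinase feedback genes. With the heat shock list it was 0.06 and 0.09, with Hspa1a and Hspa1b 0.04 and 0.10, and with the 13 mitochondrial genes -0.02 and 0.00. With the cell's total UMIs before thinning it was -0.15 and -0.10, so cells with less RNA held a slightly larger share of these transcripts.

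Genes were then ranked by their correlation with this sum within labels, leaving each gene itself out of the sum. Of 7900 genes with a UMI in at least 2% of thinned cells in both libraries, the 10 with the highest mean were Fos (0.30), Jun (0.28), Malat1 (0.27), Btg2 (0.24), Klf2 (0.23), Ier2 (0.23), Dusp1 (0.21), Jund (0.20), Junb (0.20) and Klf6 (0.20). All 9 members that could be ranked were among the highest 20. Malat1 is a nuclear long noncoding RNA, whereas Btg2, Klf2 and Klf6 are early response genes of the other list. Of the heat shock list, Ubb ranked 15, Hspa1a 71 and Hspe1 7881, and the median r of its 14 ranked genes was 0.01. Some cell type markers, picked after the ranking was seen, lay near its ends. They do not stand for their lists, whose other ranks are not given here. Sox4 (0.13, rank 19) and Gata2 (0.12, rank 21), both stem and early markers, rose with the sum. So did Ms4a2 (0.10, rank 31), of the basophil, mast cell and eosinophil genes. Prtn3 (-0.10, rank 7896) and Ctsg (-0.08, rank 7892), both granulocyte markers, were among the 10 lowest. The part of such differences inside labels in the correlations was not tested.

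Over the 17 labels, the profile of mean log2(CPM + 1) closest to that of Fos among 4419 genes was that of Junb (r = 0.96), then Fosb (0.96) and Snx10 (0.94), and Btg2 (0.91) was also among the closest. For Jund it was Malat1 (0.99), then Btg2 (0.98), Jun (0.96), Tprgl (0.95) and Dusp1 (0.95). Among the 36 pairs of the 9 genes the profile correlation ran from 0.55 to 0.96 with a median of 0.84. These points share the 2 libraries and the differences in RNA content between labels.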

How the data were processed

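The authors deposited raw UMI counts per gene ID and cell, and a table of cluster labels. Cell Ranger 2.1.0 and the build mm10 are named in the submitters' processing notes. For annotation, cell calling, doublet removal and clustering, no method is given in the sources used here. A cell's library was read from its name. The pooled antibody library was not analysed here.

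The 10 genes and all lists were chosen with earlier results of these data known. Counts were summed over the cells of each label and library (34 sums; female library 91448433 UMIs, male library 124967351) and tested with edgeR 4.0.16 (quasi-likelihood, TMM, filterByExpr) with label and library as terms (16 residual degrees of freedom), comparing equally weighted label means, with Benjamini-Hochberg adjustment over 11627 genes and a threshold of 0.05. Library is a block because both libraries hold every label, so sums of the same library share its preparation. The SE is the log2 change over the square root of F. For correlations, each cell was thinned to 4000 UMIs. Besides the 10 genes, the text names genes from those with the 2 highest and 2 lowest changes of each list past the threshold, at a mean of 20 CPM or more, and the nearest genes by correlation. Of the lists, Cyr61 and Mkl1 were not found under those symbols. A single gene is counted in its list but is not reported here by name. The scripts were tested on simulated data. Alternatives were DESeq2 1.42.0, no filter, no block, thinned cells, sums over whole label groups and shared barcodes left out; no TMM scaling and leaving out HSCP-1 or Myelo-4 were chosen after seeing the data.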

Additional observations from a re-analysis of the deposited data

How the results depend on the processing

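No change of the 9 immediate early genes other than Atf3 turned its direction in any alternative run. Of their 36 changes, 36 kept their side of the threshold with DESeq2, without the filter, without TMM scaling and with shared barcodes left out, 34 with thinned cells and 30 without the replicate block, which also cut the genes called higher in HSCP against Multi-Lin from 8 to 4. Atf3 changed direction between alternatives in 3 of the 4 comparisons. Among the list genes, some changes turned sign. In the granulocytic minus early comparison without TMM scaling these were Atf4 (-0.036), Rhob (-0.16, and -0.014 with DESeq2), Map2k2 (-0.056), Mapk14 (-0.024) and Hspd1 (-0.026). In the Myelo minus Gran comparison they included Elavl1 (0.0094 without Myelo-4, 0.023 with sums over whole label groups) and Map2k2 without Myelo-4 (0.013). Elavl1 turned in the monocytic comparison without TMM scaling (0.0045), and Tia1 in HSCP against Multi-Lin with thinned cells (-0.081); apart from the scaling, the cause was not tested. The number of genes called moved from 4894 to 7788 without HSCP-1 and 8039 with sums over whole label groups for granulocytic minus early, from 5012 to 2345 with thinned cells for monocytic minus Gran, and from 1931 to 4199 without HSCP-1, 4546 with sums over whole label groups and 1225 with thinned cells for HSCP minus Multi-Lin. The median pair correlation over both libraries was 0.10 with thinned cells, 0.21 with counts not thinned and 0.086 by Spearman's rank correlation. Each library alone gives values with no test. Depth limits Atf3 in every label and all genes in HSCP-1, DC and Myelo-4.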
